A study of Mus musculus with 12 samples.

Results

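The chaperonins of follicular (FO) B cells are described here by the 10 genes that encode their subunits. The genes were chosen by symbol, as the rows named Tcp1, Cct2, Cct3, Cct4, Cct5, Cct6a, Cct7, Cct8, Hspd1 and Hspe1, and they are 10 of the 22561 genes in the count table. All 10 passed the filter on low counts that left 9431 genes for testing. FO B cells are the recirculating, mature B cells of the splenic follicles. They were sorted by flow cytometry from spleens of C57BL6 mice at 10 weeks of age, and the labels name no genetic change in any group. RNA was profiled in 4 groups of 3 samples. One group was left unstimulated. The other groups received IFNα (0.1 μg/mL), a type I interferon, or CpG (1 μg/mL), a synthetic DNA that activates TLR9, or both agents at these doses, and were taken after 12 h. The sources used here do not say if the unstimulated samples were also cultured, so culture and stimulation cannot be told apart in a comparison with them. They also do not say whether the 3 samples of a group came from separate animals, so that each p-value measures the spread between these samples, which may be technical.

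Chaperonins are large, barrel-shaped complexes that enclose an unfolded protein and use ATP to help it fold. The cytosolic chaperonin, named CCT or TRiC, is a double ring in which each ring holds one copy of 8 related subunits, encoded by Tcp1 and Cct2 to Cct8. Actin and tubulin are its best known clients, and prefoldin and the phosducin-like proteins work with it. The mitochondrial chaperonin has a barrel of a single subunit, HSP60 (Hspd1), which is closed by a lid of HSP10 (Hspe1) and folds proteins imported into the matrix. Activated B cells grow and make much new protein before they divide or become plasma cells.

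Hspd1 and Hspe1 lie head to head on chromosome 1 (GRCm38), with Hspd1 on the minus strand at 55077835 to 55088243 and Hspe1 on the plus strand at 55088132 to 55091307. They share a promoter region, and their annotated first exons overlap by 112 bp. The 8 ring genes lie on 8 other chromosomes: Tcp1 on 17, Cct2 on 10, Cct3 on 3, Cct4 on 11, Cct5 on 15, Cct6a on 5, Cct7 on 6 and Cct8 on 16. RefSeq promoter windows of 300 bases (GRCm38.p6, 250 bases before the start site to 50 after) were matched by symbol for 9 of the 10 genes, in 12 windows. No window was matched for Cct4. The windows were searched on both strands for 3 motifs. The heat shock element is a run of alternating GAA and TTC units, and 2 such units read TTCNNGAA or GAANNTTC. In a run of 3 units, matches of this kind overlap and share the middle unit. The CCAAT box is bound by the factor NF-Y, and the E-box CACGTG by MYC among others. The sequences below are shown because the 2 mitochondrial genes share one element, and because Cct2 and Cct7 lie near the ends of the range of changes within the ring. Cct5 is shown as the third match of 2 units upstream of a start site. Each is printed 5′ to 3′ on the strand of its gene, with the motif in capitals.

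Hspe1: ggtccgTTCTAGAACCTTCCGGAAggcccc

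Cct2: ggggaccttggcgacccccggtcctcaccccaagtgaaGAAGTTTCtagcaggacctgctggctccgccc

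Cct5: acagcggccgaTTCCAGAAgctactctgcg

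Cct7: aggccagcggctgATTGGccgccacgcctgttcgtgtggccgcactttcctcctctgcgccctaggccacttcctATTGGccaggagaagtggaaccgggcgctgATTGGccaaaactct

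The stretch of Hspe1 (chr1:55088053-55088082) holds 4 alternating units between position 55088059 and position 55088076. This run lies 89 bases before the Hspe1 start at 55088148 and, read on the other strand, 144 bases before the Hspd1 start at 55087932. It also lies in an annotated alternative exon of Hspd1. A run of 3 units was found in 2 of the 12 windows, a window of Hspd1 and that of Hspe1. Of all 32851 RefSeq windows, 0.603% hold one. The looser match of 2 units is common, with 15.1% of all windows. It was found in 5 of the 12 windows and for 5 genes: Cct2, Cct5, Cct6a, Hspd1 and Hspe1. In Cct2 (chr10:117063386-117063455, minus strand) it lies 42 bases before the start, and in Cct5 (chr15:31601862-31601891, minus strand) 34 bases before it, in an annotated exon of Fam173b. In Cct6a it lies 24 bases after the start. CCAAT boxes were found for 5 genes, in 5 of the 12 windows, against 37.4% of all windows. The stretch of Cct7 (chr6:85451305-85451424, plus strand) holds 3 of them, written ATTGG, which is CCAAT on the other strand. The E-box was found for Hspd1 alone, 80 bases before its upstream start at 55088243. That is 1 of the 12 windows, against 7.15% of all windows. These matches describe the letters and not binding. A window without a match says only that the letters are not in it.

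Before the results, the libraries were checked. Totals were between 922450 and 2923865 UMI counts per sample, and a UMI (unique molecular identifier) marks one captured molecule at the 3′ end of a transcript. Counts therefore do not grow with transcript length, and levels are compared between samples and not between genes. Of 5 B cell markers (Cd79a, Cd79b, Ms4a1, Fcer2a and Ighd), none was at 0 in any group. Their summed level was 8034 to 9606 CPM (counts per 1000000, on totals scaled by edgeR's TMM factors) in unstimulated samples and 7586 to 8644 with IFNα. It was 1504 to 1658 with CpG and 1333 to 1380 with CpG + IFNα, so that it moved opposite to the chaperonin genes. The part of this sum in the results was not tested. With IFNα alone 1 of the 5 markers, Fcer2a, was lower and the other 4 did not pass (11.9% of all genes tested were lower). Fcer2a went from a mean of 1227 to 244 CPM (log2 fold change -2.34, adjusted p = 2.67e-15 by edgeR). In bulk RNA, fewer cells of a type and less RNA per cell cannot be told apart. Of the other cell types, T and NK cell markers (5 of 7 genes in the table) were between 0 and 1.82 CPM in every sample, with Cd3d, Cd3g, Cd8a, Nkg7 and Klrb1c among them. Plasmacytoid dendritic cell markers (3 genes, with 2 at 0 in each group) were between 0.713 and 6.69 CPM. Myeloid markers (5 of 6 genes in the table) were between 12.7 and 32.1 CPM in unstimulated samples and between 0 and 7.19 in the others. Erythroid markers (5 genes) were between 57.4 and 345 CPM in unstimulated samples, 15.3 and 336 with IFNα, 4.99 and 60.8 with CpG, and 5.65 and 72 with CpG + IFNα, and in each of the 4 groups the sum was highest in replicate 1 and lowest in replicate 3. Marginal zone B cell markers (4 genes) were between 219 and 222 CPM in unstimulated samples, 88.8 and 123 with IFNα, 43.0 and 56.3 with CpG, and 27.8 and 36.5 with CpG + IFNα. Most of this sum was Dtx1, with a mean of 171 CPM in unstimulated samples. With CpG, 2 of the 3 that were tested were lower (38.4% of all genes tested were lower). Cd9 did not pass with IFNα (adjusted p = 0.832 by edgeR) or CpG (0.22). Whether these cells had a part in the results was not tested.

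Every chaperonin gene was up-regulated in FO B cells that received CpG. The 10 genes together took 0.201% to 0.228% of all counts in the unstimulated samples and 0.989% to 1.1% with CpG. In the edgeR quasi-likelihood test all 10 were higher with CpG at an adjusted p under 0.1, as were 36.5% of all genes tested. All 10 were also DEGs, that is genes with such a p and a change of over 2-fold, against 20.1% of all genes tested that were DEGs and higher. The folds ran from 3.17 for Cct2 to 12.0 for Hspd1, and the median of the 10 log2 fold changes was 2.26, beside -0.03 over all genes tested. In all 10 genes every CpG sample was above every unstimulated sample, which held for 36.1% of all genes tested.

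Hspd1, the barrel subunit of the mitochondrial chaperonin, showed the steepest rise. In unstimulated samples it was at 150.1, 122 and 173 CPM, and with CpG at 1793, 1540.4 and 2021 CPM. The lowest CpG sample was thus far above the highest unstimulated one. The log2 fold change was 3.58 (SE 0.163, adjusted p = 5.83e-19 by edgeR), a 12.0-fold rise with a 95% interval from 9.51 to 15.1. By size of rise, Hspd1 stood at rank 57 of the 9431 genes.

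Hspe1, which encodes the lid, rose less. It was at 247, 243 and 249 CPM in unstimulated samples and at 1297, 1054 and 1167 CPM with CpG. The groups lay far apart, with a fold of 4.77 (interval 3.96 to 5.73, adjusted p = 2.74e-16 by edgeR). The intervals of Hspd1 and Hspe1 did not overlap, although both genes start in the same region.

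**Figure D1:**
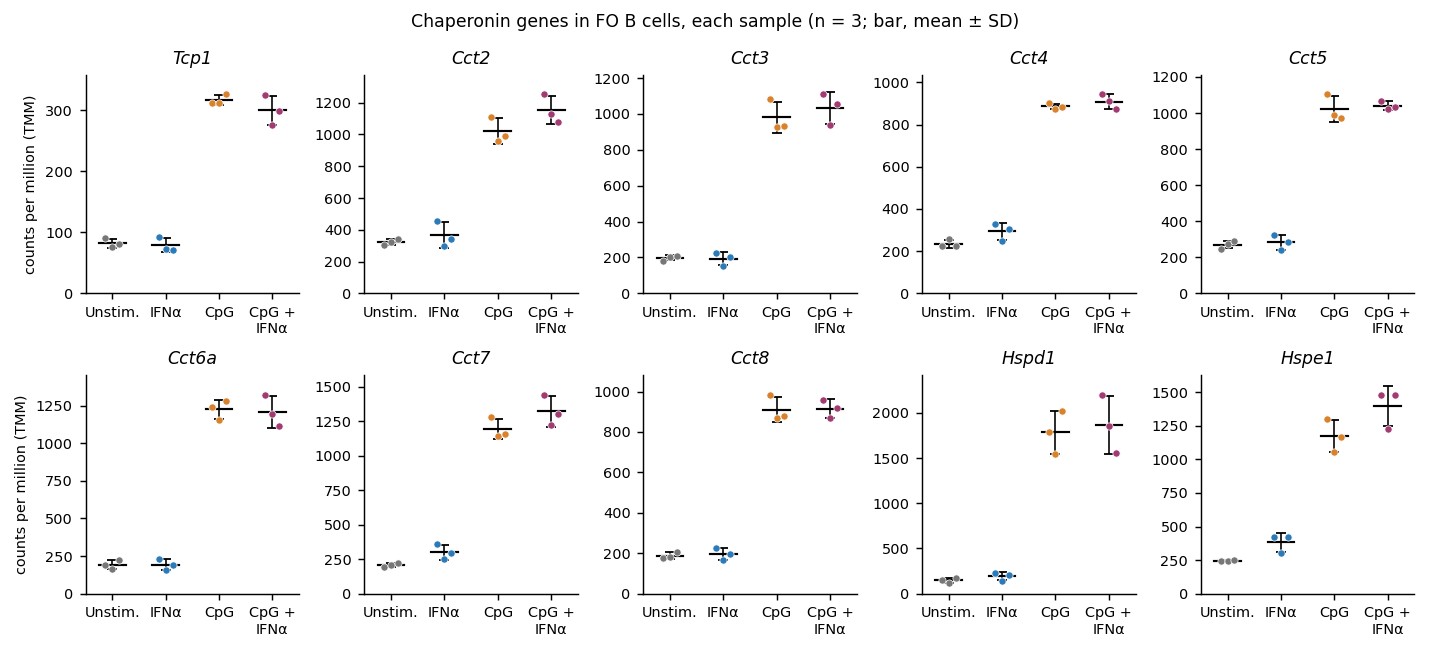
Counts per 1000000 (CPM), on totals scaled by edgeR's TMM factors (y axis, linear from 0, its range set for each gene), of the 10 chaperonin genes in each sample of the 4 groups (x axis). Points are samples, and bars are the mean and SD of 3. In every panel the 6 samples that received CpG sit above the 6 that did not, from 276 CPM upward against at most 92.8 for Tcp1 and from 1540.4 CPM upward against at most 225 for Hspd1.

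Within the CCT ring the rises were of unequal size. Cct6a, the zeta subunit, was at 192, 167 and 222 CPM in unstimulated samples and at 1242, 1153 and 1279.5 CPM with CpG, a 6.30-fold rise (interval 5.23 to 7.59). Cct7, the eta subunit, went from 196, 211 and 221 CPM to 1281, 1141 and 1161 CPM, a 5.71-fold rise (interval 4.78 to 6.82). At the other end, Cct2, the beta subunit, was at 303, 321 and 342 CPM without stimulation and at 1113, 961 and 988 CPM with CpG, a 3.17-fold rise with an interval from 2.65 to 3.79. The intervals of Cct2 and of these 2 genes did not overlap. The samples of each group were close to one another in all 3 genes, with SDs of at most 80.8 CPM in these 2 groups.

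The remaining 5 subunits lay between them. Cct3 (gamma) rose 4.94-fold, from 183 to 209 CPM in unstimulated samples to 926 to 1082 CPM with CpG. Cct8 (theta) rose 4.82-fold, from 177 to 206 CPM to 871 to 984 CPM. Tcp1 (alpha) rose 3.84-fold, from 75.9 to 90.1 CPM to 311 to 325 CPM. Cct4 (delta) and Cct5 (epsilon) rose 3.78-fold each, Cct4 from 224 to 256 CPM to 874 to 900.1 CPM, and Cct5 from 248 to 289 CPM to 970.0 to 1103 CPM. The largest adjusted p among the 8 ring genes was 2.60e-13, for Cct2. The ring genes with a heat shock match of 2 units, Cct2, Cct5 and Cct6a, included both the smallest and the largest of the rises within the ring. The match of Cct6a lies after its start, and Cct4 had no window. Whether a match had any part in a rise was not tested.

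Several of the genes overlap others, and the strand setting of the authors' counting is not given in the sources used here. The last exon of the main Tcp1 transcript lies inside an exon of Acat3 on the opposite strand. The 2 genes share 571 bp of exon, and Acat3 had between 0 and 3 counts per sample. Tcp1 had the fewest counts of the 8 ring genes, between 71 and 799 per sample, and the part of this overlap in its counts was not tested. The 3′ end of Cct8 overlaps that of Usp16 by 192 bp. Usp16 had 73 to 149 counts per unstimulated sample, 115 to 151 with IFNα, 245 to 337 with CpG and 376 to 611 with CpG + IFNα, against 170 to 234, 222 to 276, 1222 to 1758 and 1760 to 2524 for Cct8. It was higher with CpG by 0.54 and with CpG + IFNα by 0.87 on the log2 scale (adjusted p = 0.00144 and 1.93e-06 by edgeR), and the part of this overlap in the Cct8 counts was not tested. The overlaps of Tcp1 with Mrpl18, of Cct6a with Psph and of Cct7 with Pradc1 lie at the 5′ ends of the chaperonin genes, away from the end that was counted. A processed copy of Hspd1, Hspd1-ps3, had 0 counts in each unstimulated sample, 0 to 2 with IFNα, 6 to 19 with CpG and 16 to 27 with CpG + IFNα, against 114 to 5368 counts for Hspd1.

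The genes also rose when IFNα was present. With CpG + IFNα all 10 genes were DEGs against unstimulated cells, against 20.3% of all genes tested that were DEGs and higher. All samples lay above the unstimulated ones in the 10 genes, as in 36.6% of all genes tested. Hspd1 was at 2202, 1852 and 1561 CPM, a 12.5-fold rise (interval 9.96 to 15.8), and Hspe1 at 1480.4, 1226 and 1481 CPM, a 5.67-fold rise (interval 4.71 to 6.82). In the ring the folds ran from 3.58 for Cct2 to 6.32 for Cct7. Against cells with IFNα alone, which is a comparison without unstimulated cells, all 10 were again DEGs (18.7% of all genes tested were DEGs and higher) and did not overlap between the groups (35% of all genes tested). There the folds ran from 3.10 for Cct4 to 9.88 for Hspd1. The comparisons share samples, and so are not independent of one another. A stricter threshold of 4-fold left 6 of the 10 as DEGs with CpG, 6 with CpG + IFNα, and 5 against IFNα. The share of all genes tested that passed 4-fold was not counted, so these counts have no background beside them.

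In cells with IFNα alone, 3 of the 10 genes passed the test against unstimulated cells, and leaving out each sample in turn gave between 2 and 5. With a sample left out, 9.04% to 12.6% of all genes tested were higher. Hspe1, Cct7 and Cct4 were higher than in unstimulated cells at an adjusted p under 0.1, as were 12.4% of all genes tested, and none of the 10 was lower (11.9% of all genes tested). None was a DEG, and of all genes tested 4.56% were DEGs and higher and 4.07% DEGs and lower. Hspe1 was at 424, 301 and 420.5 CPM, a 1.54-fold rise (interval 1.28 to 1.86, adjusted p = 0.00058 by edgeR). All its IFNα samples were above the highest unstimulated sample, at 249 CPM. Cct7 was at 357, 253 and 292 CPM, a 1.43-fold rise (interval 1.19 to 1.71, adjusted p = 0.00348), also without overlap. Groups without overlap in this direction were seen in 16.4% of all genes tested.

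Cct4 and Hspd1 lay near the threshold. Cct4 was at 329.9, 251 and 304 CPM with IFNα and at 224, 256 and 225 CPM without, so that the groups overlapped. Its fold was 1.25 (interval 1.06 to 1.48, adjusted p = 0.055), and the call was lost when the unstimulated replicate 1 or 3 or the IFNα replicate 1 or 3 was left out (adjusted p between 0.15 and 0.244). Hspd1 was at 225, 140.5 and 209 CPM, against 122 to 173 CPM without stimulation. Its fold of 1.27 (interval 1.001 to 1.61) had an adjusted p of 0.163. In an alternative edgeR fit with the replicate number as a block, Hspd1 passed (adjusted p = 0.0872). The other 6 genes had log2 fold changes between -0.07 for Tcp1 and 0.17 for Cct2, with adjusted p of at least 0.394.

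These values also moved with IFNα replicate 2. It was the lowest of its group in 9 of the 10 genes and IFNα replicate 1 the highest in all 10. The order differed in unstimulated samples, where replicate 1 was the lowest in 6 genes and the highest in 1, and replicate 3 the highest in 8. With CpG replicate 2 was the lowest in 9 and replicate 1 the highest in 7, and with CpG + IFNα replicate 2 was the lowest in 6 and replicate 1 the highest in 9. IFNα replicate 2 differed from the other IFNα samples with a chi-square per degree of freedom of 4.501 and 5.998 over all genes, against 2.202 for the pair of the others. Replicate 2 of CpG + IFNα stood apart in the same measure (4.48 and 6.31, against 2.67), and leaving it out changed the call of none of the 10 genes. Without IFNα replicate 2, 5 of the 10 genes were higher with IFNα, Cct2 and Hspd1 being added, and 12.3% of all genes tested in that fit were higher. The log2 fold change of Hspd1 was then 0.54 (adjusted p = 0.0118 by edgeR) and that of Cct2 was 0.31 (adjusted p = 0.0796).

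When IFNα was added to CpG, none of the 10 genes passed the test in either direction. Over all genes tested, 6.54% were higher and 8.83% were lower. The differences were between -0.08 for Tcp1 and 0.25 for Hspe1 on the log2 scale, and in all 10 genes the samples of the groups overlapped, whereas 11.5% of all genes tested did not overlap and were higher and 16.7% were lower. Hspe1 had an unadjusted p of 0.0415 and an adjusted p of 0.19 by edgeR, with a 1.19-fold difference whose interval ran from 1.01 to 1.40. It was the only one of the 10 with an unadjusted p under 0.05. DESeq2 called 0 of the 10, and its share of all genes called was not counted. For Hspd1 the interval ran from 0.863 to 1.27 times the level with CpG alone, and for Cct6a from 0.838 to 1.16 times. Across the 10 genes the intervals lay between 0.812-fold for Tcp1 and 1.40-fold for Hspe1, so that a change of 1.5-fold or more lay outside each of them. Hspe1 was called under some of the alternatives. Its adjusted p was 0.0554 when only these groups were fitted, where its log2 difference was 0.28. With the replicate number as a block, its adjusted p was 0.0972 by edgeR and its log2 difference 0.25. Hspe1 was also called without IFNα replicate 2 (adjusted p = 0.0864), which is in neither group. Leaving that library out also changed the filter, to 9593 genes tested, of which 7.16% were higher. Why the call changed was not tested.

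The interaction compares the effect of IFNα with CpG to its effect without CpG. None of the 10 genes passed, against 5.84% of all genes tested in the positive direction and 7.58% in the negative. The interaction subtracts the effect of IFNα alone, so that genes chosen for a high value there are moved toward negative values by construction. Of the 3 genes called with IFNα alone, Hspe1 was at -0.38 (interval -0.74 to -0.02, adjusted p = 0.2), Cct7 at -0.37 (interval -0.72 to -0.02, adjusted p = 0.191) and Cct4 at -0.29 (interval -0.61 to 0.04, adjusted p = 0.291), all on the log2 scale and by edgeR. This result rested on IFNα replicate 2. Without that library these 3 genes passed (8.47% of all genes tested in that fit were lower), with values of -0.53 for Hspe1 (adjusted p = 0.021), -0.49 for Cct7 (adjusted p = 0.0393) and -0.40 for Cct4 (adjusted p = 0.074). In the full data, DESeq2 called 0 of the 10, and its share of all genes called was not counted. The unadjusted p by edgeR was under 0.05 for Hspe1 (0.0415) and Cct7 (0.0378).

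**Figure D2:**
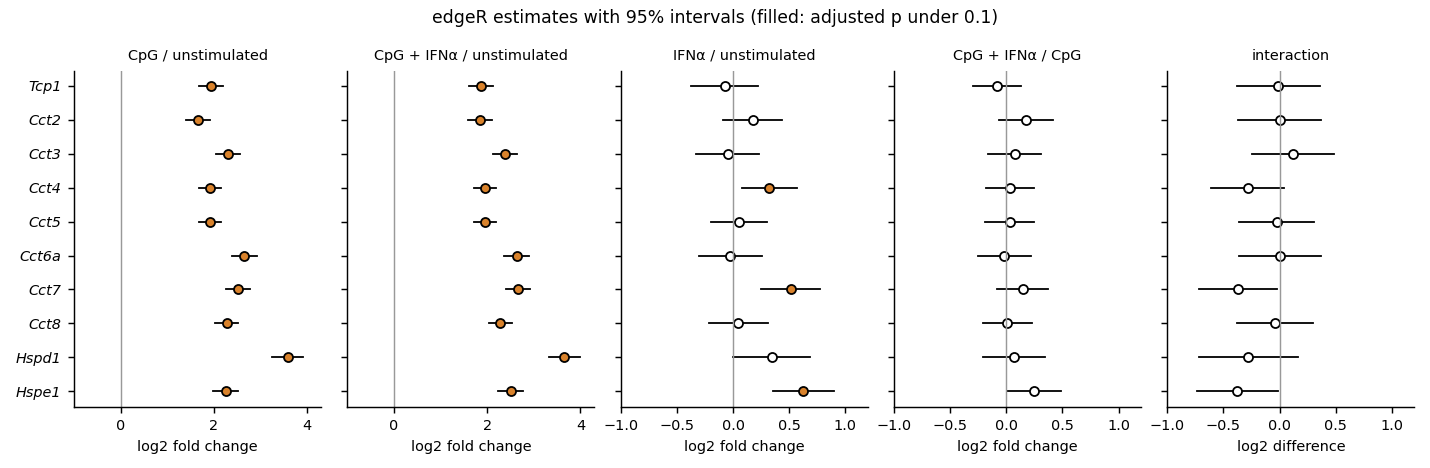
Log2 fold change (x axis) of each chaperonin gene (y axis) in 5 comparisons, as estimated by edgeR over all 12 samples, with 95% intervals. Filled points passed an adjusted p of 0.1. The left panels span a wider x range than the others: all points lie between 1.66 and 3.65 where CpG was compared with no stimulus, and between -0.38 and 0.63 in the other panels.

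Because CCT holds its 8 subunits in equal number, the share of each gene in the summed counts of the ring was followed within each sample. This ratio needs no normalization between samples. It follows how a gene moved against the others and does not compare their levels, since capture at the 3′ end can differ between genes. Cct7 took 12.1%, 12.5% and 12.3% of the ring counts in unstimulated samples and 15.9%, 15.9% and 15.5% with IFNα. The 95% Wilson interval of the highest unstimulated value ran from 10.9% to 14.2% and that of the lowest IFNα value from 14.1% to 17.0%, and such intervals cover counting error only. With CpG the share of Cct7 was 16.0%, 15.8% and 15.6%, and with CpG + IFNα 17.1%, 16.2% and 17.0%. All 9 stimulated samples were thus above the 3 unstimulated ones.

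The share of Cct2 went the other way with CpG. It was 18.8% to 19.0% in unstimulated samples, 18.2% to 20.3% with IFNα, 13.3% to 13.9% with CpG and 14.1% to 14.9% with CpG + IFNα. Cct6a had 9.88% to 12.4% without stimulation, 10.0% to 10.3% with IFNα, 15.5% to 17.2% with CpG and 14.5% to 15.8% with CpG + IFNα. For both genes, all samples with CpG lay apart from all samples without it. Cct5 and Cct4 also took smaller shares with CpG, Cct5 from 15.9% ± 0.475 (SD, n = 3) to 13.5% ± 0.379, and Cct4 from 13.9% ± 1.3 to 11.7% ± 0.458. Cct3 went from 11.7% ± 0.346 to 13% ± 0.474 and Cct8 from 11.1% ± 0.377 to 12.1% ± 0.224. The share of Tcp1 was 4.47% to 5.59% in unstimulated samples and 3.89% to 4.39% with CpG. For Tcp1, Cct4 and Cct8, the ranges of these groups did not overlap. They lay closer to each other than the SD of the unstimulated samples (0.636%, 1.3% and 0.377%).

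**Figure D3:**
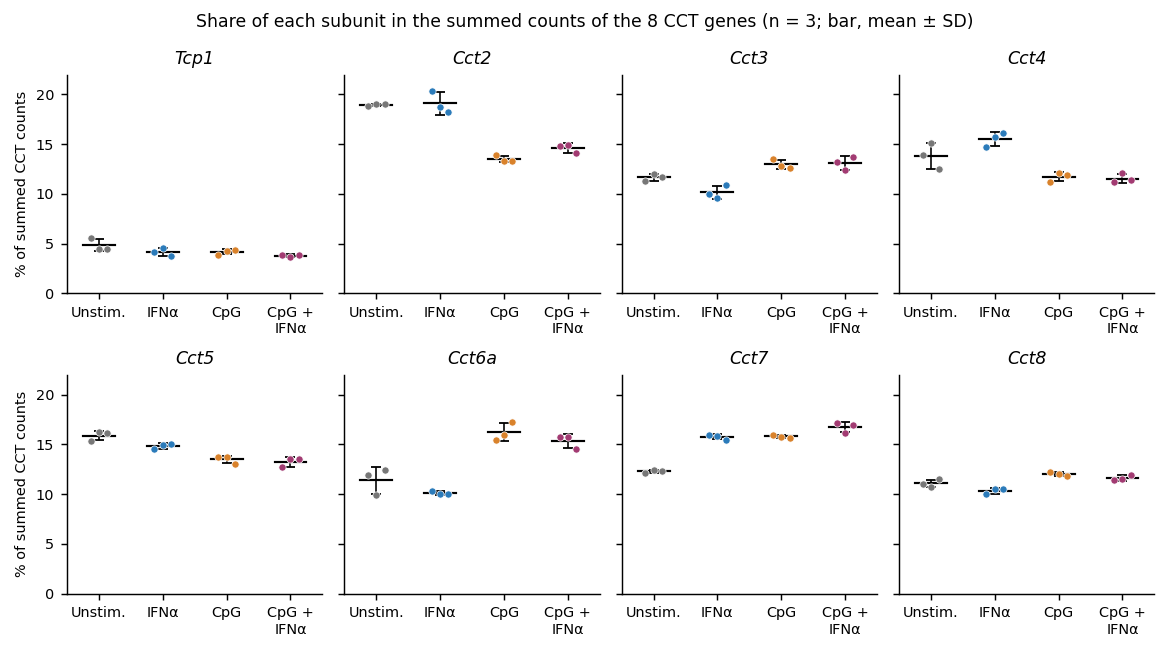
Share of each CCT subunit gene in the summed counts of the 8 ring genes (y axis, percent, linear from 0) in each sample of the 4 groups (x axis). Points are samples, and bars are the mean and SD of 3. Cct2 lies at 18.2% or more in the 6 samples without CpG and at 14.9% or less in the 6 with it, Cct6a does the opposite, and Cct7 is lowest in the unstimulated samples.

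The counts of Hspe1 and Hspd1 were also followed against each other within each sample, as RNA and not as lid and barrel protein. The ratio of Hspe1 to Hspd1 counts was 1.64, 1.99 and 1.44 in unstimulated samples and 1.88, 2.14 and 2.01 with IFNα. With CpG it was 0.724, 0.684 and 0.578, and with CpG + IFNα 0.672, 0.662 and 0.949. All 6 samples with CpG were below all 6 without it. The mean went from 1.69 ± 0.279 (SD, n = 3) to 0.662 ± 0.0756 with CpG. Set against the ring, the sum of Hspd1 and Hspe1 was 0.216 to 0.246 of the summed CCT counts in unstimulated samples, 0.277 to 0.334 with IFNα, 0.359 to 0.430 with CpG and 0.397 to 0.437 with CpG + IFNα. This ratio was higher in each stimulated sample than in any unstimulated one.

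**Figure D4:**
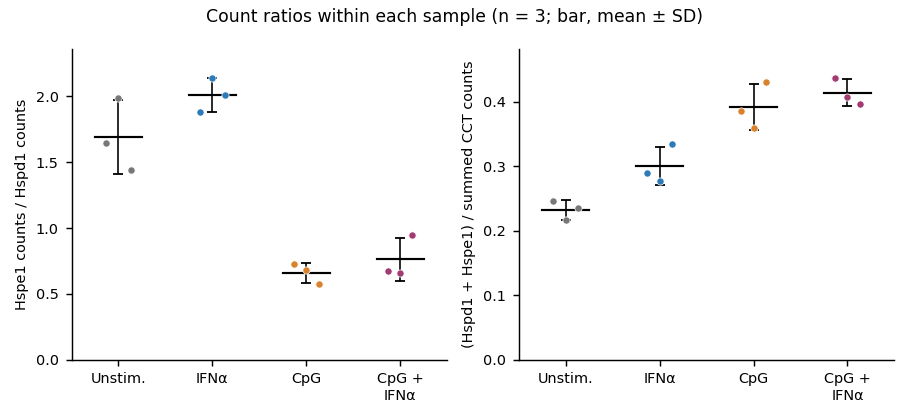
Ratio of Hspe1 to Hspd1 counts (left) and of Hspd1 plus Hspe1 to the summed counts of the 8 CCT genes (right), without units, in each sample of the 4 groups (x axis). Points are samples, and bars are the mean and SD of 3. The left ratio lies between 1.44 and 2.14 without CpG and between 0.578 and 0.949 with it, and the right ratio rises from 0.216 at its lowest to 0.437 at its highest.

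The profiles of the 10 genes over the 12 samples were compared with one another and with those of other genes. Likeness was measured as the root mean square difference between log2 CPM profiles, each centred on its own mean. Cct8 was closest to the mean of the other 9 genes (0.0725) and Hspd1 farthest (0.69). The closest pair was Cct3 and Cct8 (0.0921) and the most distant Cct2 and Hspd1 (0.904). By closeness to the mean of the 10, the genes themselves ranked between 1 (Cct8) and 1316 (Hspd1) of the 9431 genes tested, and 5 of them (Tcp1, Cct2, Cct4, Cct6a and Hspd1) ranked beyond 100, so that many other genes lay closer to this mean. Among the 9421 other genes tested, those closest to the mean profile of the 10 were Hdgf (0.0838), a growth factor that binds chromatin, Cycs (0.105), the cytochrome c of the respiratory chain, Prmt5 (0.109), an arginine methyltransferase, Rars (0.110), the arginyl-tRNA synthetase, and Anp32b (0.113), a histone chaperone. Their own log2 fold changes with CpG lay between 2.13 for Anp32b and 2.28 for Hdgf. These values are descriptions over 12 samples that share the same 4 groups.

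The genes that work with CCT mostly rose with it. Of 9 cofactor genes, all tested, 7 were higher with CpG, 1 was lower and 1 did not pass, with a median log2 fold change of 1.07. Of all genes tested, 36.5% were higher and 38.4% were lower, with a median of -0.03. Among the prefoldin subunits, which hand clients to CCT, Pfdn4 rose by 2.49 (SE 0.157), Pfdn2 by 1.97 and Pfdn6 by 1.78 on the log2 scale. Pfdn5 fell by 0.60 (adjusted p = 2.15e-05 by edgeR) and by 0.88 with CpG + IFNα. With IFNα alone 3 of the 9 were higher and none was lower, beside 12.4% and 11.9% of all genes tested. When IFNα was added to CpG, Vbp1, another prefoldin subunit, was lower by 0.35 (adjusted p = 0.0359), the one cofactor that passed (8.83% of all genes tested were lower), and it was named after its values were seen.

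Of 19 genes for clients of CCT, 11 were higher with CpG, 5 were lower and 3 did not pass, with a median log2 fold change of 0.51. Over all genes tested these shares were 36.5% higher and 38.4% lower. The α-tubulins Tuba1b and Tuba1c rose by 1.49 and 0.96, and the β-tubulin Tubb4b by 1.23, on the log2 scale. Tuba1a, another α-tubulin, fell by 4.72 (SE 0.245), the cytoplasmic actin Actb by 1.14 and the G protein subunit Gnb2 by 1.12. Tubulin and actin genes have near-identical relatives, and how the counting divided reads between them is uncertain. When IFNα was added to CpG, 5 of the 19 were lower and none was higher, beside 8.83% and 6.54% of all genes tested. These were Tubb5 (-0.87), Tuba1b (-0.45), Gnb1 (-0.40), Tuba4a (-0.37) and Gnb2 (-0.29), and they were named after their values were seen.

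**Figure D5:**
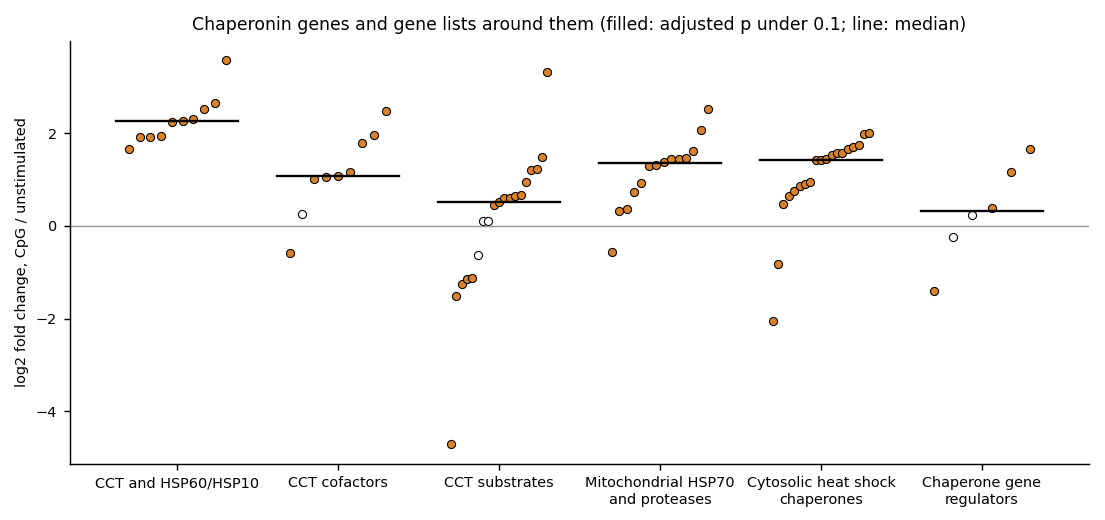
Log2 fold change with CpG against unstimulated cells (y axis) of the 10 chaperonin genes and of the tested members of 5 lists around them (x axis), ordered by value within each list. Filled points passed an adjusted p of 0.1 and lines mark the medians, which are 2.26 for the chaperonin genes, 1.07 for cofactors, 0.51 for substrates, 1.35 for mitochondrial HSP70 and proteases, 1.42 for cytosolic chaperones and 0.32 for regulators.

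The list of other mitochondrial folding and protease genes held 15, of which 14 were tested. Of these, 13 were higher with CpG and 1 was lower, with a median log2 fold change of 1.35, beside 36.5% higher and 38.4% lower of all genes tested. Hspa9, the mitochondrial HSP70 that pulls in proteins and passes them to HSP60, rose by 2.53 (SE 0.131), the protease Clpp by 1.63 and Grpel1, the nucleotide exchange factor of Hspa9, by 1.47. Spg7, a subunit of an inner membrane protease, fell by 0.56. None of the 14 passed when IFNα was added to CpG, where 6.54% of all genes tested were higher and 8.83% lower.

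The cytosolic heat shock chaperones gave a similar count. Of 22 genes 19 were tested, 17 were higher with CpG and 2 were lower, with a median of 1.42, again beside 36.5% and 38.4% of all genes tested. The largest evidence was for Hspa4 (1.97), an HSP110 family exchange factor, Hsp90ab1 (2.0), the constitutive HSP90, and Ptges3 (1.57), the HSP90 cochaperone p23. The 2 genes that fell were Dnajb1, an HSP40 cochaperone, by 0.83, and Hspa1b, an inducible HSP70, by 2.05. Hspa1b had at most 16 counts in any sample, and its fold rests on few molecules. With IFNα added to CpG, Dnaja2 was higher by 0.36 and Dnajb6 by 0.46 (6.54% of all genes tested were higher), both of them HSP40 cochaperones that were named after their values were seen.

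Of 4 genes for chaperonin-like proteins 2 were tested. Bbs12 was higher with CpG, by 2.47, from 1 to 3 counts per unstimulated sample to 15 to 25 counts, and Mkks did not pass (-0.19, adjusted p = 0.656). Of 6 genes for regulators of chaperone genes, 3 were higher and 1 was lower with CpG, beside 36.5% and 38.4% of all genes tested. Myc rose by 1.66, Atf5, a factor of the mitochondrial stress response, by 1.17, and Atf4 by 0.39, while Ddit3 fell by 1.40. Hsf1, the main heat shock factor, was at 63.3 ± 1.79 CPM (SD, n = 3) without stimulation and 74.6 ± 1.97 CPM with CpG and did not pass (adjusted p = 0.158), nor did Hsf2 (adjusted p = 0.268). With CpG + IFNα against unstimulated cells, Hsf1 was higher by 0.28 (adjusted p = 0.0900 by edgeR) and Hsf2 lower by 0.35 (adjusted p = 0.0886). In that comparison 37.6% of all genes tested were higher and 38.8% lower. With IFNα alone 4 of the 6 were lower and none was higher, beside 11.9% and 12.4% of all genes tested. Myc fell by 2.28, from 179 ± 41.8 to 38 ± 10.9 CPM, Hsf2 by 0.60, Hsf1 by 0.45 and Atf4 by 0.36 on the log2 scale, and these were named for IFNα after their values were seen.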

How the data were processed

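RNA of sorted FO B cells was measured by bulk RNA barcoding (BRB) sequencing in 12 samples. By the paper's methods, the authors extracted barcodes with UMI-tools 1.1.2, trimmed with Trim Galore 0.6.7, mapped to GRCm38 with HISAT2 2.2.1, assigned reads with featureCounts 2.0.1 and removed UMI duplicates. They deposited UMI counts per gene without normalization. Names and positions came from GENCODE M21, which holds all 22561 identifiers. From the counts, edgeR 4.0.16 (R 4.3.3) computed TMM factors, kept 9431 genes with filterByExpr and fitted the 4 groups together (glmQLFit and glmQLFTest, 8 residual degrees of freedom), with Benjamini-Hochberg adjustment over all genes tested. Genes were called at an adjusted p under 0.1, and DEGs also had a log2 fold change over 1 in size. CPM are counts per 1000000 of TMM-scaled totals, at depths of 922450 to 2923865 counts. The script was tested on simulated counts.

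The chaperonin genes, the lists around them and the marker lists were chosen with earlier results of these data known. All 10 genes are named, and from each list the called genes with the smallest p in CpG against unstimulated cells, up to 3 that rose and 3 that fell. The 5 genes closest in profile are also named. Alternatives were RLE factors, library size only, no filter, DESeq2 1.42.0, a fit of the groups compared, the replicate number as a block, a 4-fold threshold, counts thinned to the lowest library total, removal of rRNA and mitochondrial genes, and each sample left out. Shares and ratios had no test. Flow cytometry and qPCR were not analysed here. Part of the B cell marker list is not reported here, and its sums leave that part out.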

Additional observations from a re-analysis of the deposited data

Results flagged for a closer look

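None of the 10 chaperonin genes differed in its response to IFNα between cells with and without CpG at an adjusted p under 0.1, and Dixon's outlier test was not run on groups of 3 samples. Of the 69 tested genes of the lists around them, 5 had a positive and 7 a negative interaction that passed in edgeR, beside 5.84% and 7.58% of all genes tested. Of these 12, 8 were among the 30 list genes named by rule or for a change when IFNα was added to CpG. Both choices used comparisons that are part of the interaction. Genes chosen as lower when IFNα was added are thus moved toward negative values by construction. The interaction is given here as the log2 effect of IFNα with CpG minus that without. It was 2.60 for Myc (adjusted p = 3.78e-10), 0.82 for Atf4 (adjusted p = 0.000329) and 3.80 for Hspa1b (adjusted p = 0.00606), the last at 16 counts or fewer per sample. The 3 tubulin genes that passed were negative, with -1.12 for Tubb5 (adjusted p = 4.41e-06), -0.81 for Tubb4b (adjusted p = 0.00296) and -0.79 for Tuba1b (adjusted p = 0.00228). The prefoldin genes Vbp1 and Pfdn5 were at -0.54 (adjusted p = 0.0564) and -0.42 (adjusted p = 0.0925). The remaining 4, chosen for this value, were Dnajc7 (-1.64, adjusted p = 3.97e-09), Bag1 (-0.69, adjusted p = 0.0127), Hsp90aa1 (0.69, adjusted p = 0.0423) and Actg1 (0.999, adjusted p = 0.0801).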

How the results depend on the processing

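The 10 genes stayed higher and past the threshold under every alternative run in CpG, and CpG + IFNα, against unstimulated cells and in CpG + IFNα against IFNα, with log2 fold changes between 1.53 and 3.80. The DEG threshold of 4-fold left 6, 6 and 5 genes in these comparisons, and the share of all genes tested that passed it was not counted. For IFNα alone, leaving out each sample gave between 2 and 5 called genes, the 5 without IFNα replicate 2. In those fits 9.04% to 12.6% of all genes tested were higher. The call of Cct4 (adjusted p = 0.055) was also lost with library size only (adjusted p = 0.144), no filter (0.104) and drawn-down counts (0.122). For CpG + IFNα against CpG, leaving out samples gave 0 to 1 genes, and for the interaction 0 to 3. The highest counts came without IFNα replicate 2. In that fit 7.16% of all genes tested were higher against CpG, and 8.47% had a negative interaction that passed. Fitting only the groups compared gave 1 gene against CpG, Hspe1. The share of all genes called was not counted for that fit, for the replicate block or for DESeq2. Same-numbered samples correlated in their deviations by -0.0651 to 0.205, with 5 of 18 pairs over 0.1 (0 of 36 for unlike numbers), and 10 of 12 samples correlated best with their own number. This is a hint from the data that numbers may be shared, but not every pair was over 0.1, and the numbers were not taken to pair the samples. The replicate block gave 1 gene in CpG + IFNα against CpG, Hspe1 (adjusted p = 0.0972), and added Hspd1 for IFNα alone (adjusted p = 0.0872). It changed no other call of the 10 genes. Where these results changed, the cause was not tested.

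Values near 0 changed sign without any being called. In CpG + IFNα against CpG, the log2 value of Cct6a was 0.0024 with RLE factors, 0.0433 without the filter, 0.015 without rRNA and mitochondrial genes, 0.0097 with only these groups and 0.0075 in DESeq2, and that of Cct8 was -0.0009 with library size only. For IFNα alone, Cct5 was -0.0337 and Cct8 -0.0387 with library size only, and Tcp1 was 0.0141 and Cct6a 0.004 with drawn-down counts. In the interaction, Tcp1 was 0.0224 with RLE factors, 0.0642 with library size only, 0.0496 without the filter, 0.0598 without rRNA and mitochondrial genes and 0.0125 in DESeq2. Cct5 was 0.0046 with RLE factors, 0.0545 with library size only, 0.0324 without the filter, 0.0442 without rRNA and mitochondrial genes and 0.0497 with drawn-down counts. Cct8 was 0.0378 with library size only, 0.0175 without the filter and 0.0286 without rRNA and mitochondrial genes, and drawn-down counts gave -0.0328 for Cct2 and -0.0226 for Cct6a.

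Leaving out each sample in turn gave these ranges of log2 values. For IFNα alone they were -0.1776 to 0.0041 for Tcp1, -0.0004 to 0.3098 for Cct2, -0.154 to 0.1164 for Cct3, -0.0475 to 0.1734 for Cct5, -0.1574 to 0.1107 for Cct6a and -0.0407 to 0.1625 for Cct8. In CpG + IFNα against CpG they were -0.0081 to 0.0877 for Cct5, -0.0874 to 0.0356 for Cct6a, -0.0278 to 0.0657 for Cct8 and -0.064 to 0.1812 for Hspd1. In the interaction they were -0.0882 to 0.0911 for Tcp1, -0.1356 to 0.1721 for Cct2, -0.0425 to 0.2254 for Cct3, -0.1449 to 0.0734 for Cct5, -0.1309 to 0.1347 for Cct6a and -0.1557 to 0.045 for Cct8. Drawn-down counts moved 4 mean shares by more than their SD, to 18.6% for Cct2 in unstimulated samples, 14.5% for Cct5 and 10.3% for Cct6a with IFNα, and 3.64% for Tcp1 with CpG + IFNα. Counts of 71 to 551 per gene and sample without CpG limit what can be seen of the small changes with IFNα.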
